A study of Mus musculus with 4 samples.

Results

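Type 15 ganglion cells are the cells that carry the name 15_Novel in the authors' type predictions for a spatial map of the mouse retina. They were selected by that name alone and numbered 2692 of 131379 ganglion cells. The map covers 5 retinas of wild-type C57BL/6 mice that had no manipulation and free access to food and water, and all 5 form 1 group. The retinas were cryosectioned parallel to their surface at 20 µm and imaged with Xenium, which shows single transcripts as puncta, on a custom panel of 300 genes. Each ganglion cell had been given 1 of 45 type names. The sources used here give neither age nor sex of the mice. They also do not state how many mice the 5 retinas represent, and p-values therefore reflect variation among these 5 retinas alone, which may be technical.

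Retinal ganglion cells are the output neurons of the eye. Each type collects signals from its own set of bipolar and amacrine cells and sends 1 feature of the image to the brain through the optic nerve. Types differ in transcription factors, transmitter receptors, channels and peptides, and the cells of a type often lie in a mosaic, in which near neighbours of the same type are rare. The name 15_Novel states no function, and none is assigned here.

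Type 15 cells carried the general markers of ganglion cells. Slc17a6, the vesicular glutamate transporter VGLUT2, was detected in 98.3% of them, and Rbpms, an RNA-binding protein used to label all ganglion cells, in 96.7%. The 6 ganglion cell markers on the panel made up 9.32 ± 0.392% of the puncta of type 15 cells and 8.17 ± 0.223% in the other types (SD over 5 retinas, mean over types). Of markers of other cell types, the 14 amacrine genes held 5.25 ± 0.185% of puncta in type 15 against 4.26 ± 0.0979%, and the 10 bipolar genes 1.38 ± 0.147% against 0.990 ± 0.0752%. The amacrine list includes Pax6, with 11.1 puncta per type 15 cell and 8.42 in the other types. The bipolar list includes Grik1 (0.743 and 0.309) and Isl1, which is also on the ganglion cell list. These sums are therefore not read as RNA of amacrine or bipolar cells. From a list of 6 rod markers, the 3 on the panel held 0.418 ± 0.238% in type 15 against 0.405 ± 0.136%, with the highest retina at 0.824%. Without sections of under 500 ganglion cells these values were 0.347 ± 0.106% in type 15 against 0.389 ± 0.128%. The 5 Müller glia genes held 0.465% against 0.543%. The only endothelial marker on the panel, Cdh5, held 0.0150% against 0.0600% of puncta, and the 2 microglial markers held 0.0133% against 0.0430%. Type 15 cells had a median of 334, 288, 294.5, 286 and 318.5 puncta in retinas 1 to 5, against 326, 297, 284, 296 and 304 puncta in the other ganglion cells, so depth per cell differed little between the groups. The summed puncta of type 15 ran from 78909 to 265037 per retina.

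A pair of small sections of retina 3 stood apart. They held 125 and 134 ganglion cells, of which 5 (4.00%) and 24 (17.9%) were named type 15. These 29 cells had 70.4 puncta per cell over 9 rod photoreceptor genes, a list made after the sections were seen, against 2.02 in all remaining type 15 cells. Their Penk level was 0.276 puncta per cell, against 6.19 in the remaining type 15 cells, and 27 of the 29 lay in the centre. Results that could rest on them are therefore given with and without the 11 sections that hold under 500 ganglion cells. Those 11 sections contain 46 type 15 cells, and leaving them out makes the type 1.74% of retina 3.

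Type 15 was a type of middling abundance. It made up 2.20%, 1.98%, 1.93%, 2.07% and 1.92% of the ganglion cells of retinas 1 to 5, with 773, 814, 254, 575 and 276 cells. The mean share was 2.02 ± 0.117% (SD, n = 5), which ranked 21 among the 45 types. Its coefficient of variation over retinas was 5.77%, the 11th lowest. Without the small sections the mean share was 2.00 ± 0.172%, and the coefficient of variation was 8.63%, the 24th lowest.

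**Figure D1:**
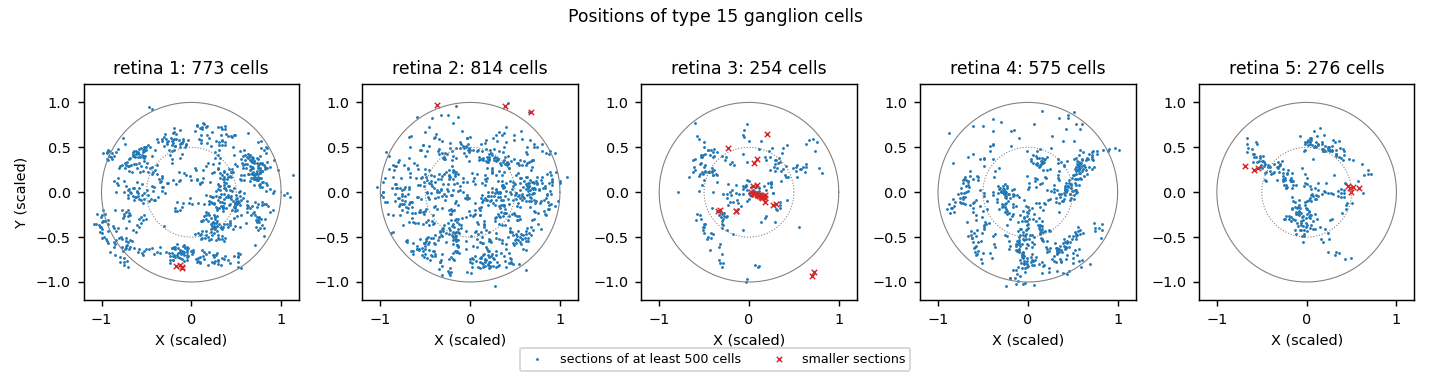
Positions of the 2692 type 15 cells in the authors' scaled circle (X and Y without unit), 1 panel per retina. The dotted ring at 0.5 separates centre from periphery, and red crosses are cells of sections with under 500 ganglion cells, which cluster near the centre of retina 3.

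The gene profile of type 15 was led by Penk, Ramp3, Pcdh11x, Isl2 and Meis2, which encode a peptide precursor, a receptor partner, a protocadherin and a pair of homeodomain factors. The log2 difference below is the level in type 15 minus the mean of the log levels of the other 44 types, with SE. It was fitted with edgeR on puncta summed per retina and type, scaled to the total with TMM factors. The types may have been assigned from these same genes, so the profile is a description without a test. By this measure 18 of 300 genes (6%) were at least 2-fold higher and 14 of 300 (4.67%) at least 2-fold lower, with the same direction in each of the 5 retinas. Counts in the gene and marker lists below stand beside these shares and were not tested. A mean of logs gives weight to types with almost none of a gene, so levels in puncta per cell are given beside it.

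Penk encodes proenkephalin, the precursor of the enkephalin opioid peptides. Type 15 cells held 6.58, 5.97, 4.93, 5.99 and 6.74 Penk puncta per cell in retinas 1 to 5, against 1.62, 1.5, 1.52, 1.5 and 1.5 in the other types. The lowest type 15 retina, which holds the small sections described above, lay well above the highest value of the other types. On the log2 scale Penk differed by 3.82 ± 0.05, and by 3.79 without the small sections. The median of the other types was 0.323 puncta per cell, and only 19_Novel (16.7), 20_Novel (16.6), 06_W3B (12.3) and 26_Novel (6.65) had more than type 15. Within type 15 the level varied from cell to cell, with a 10th percentile of 0, a median of 5 and a 90th percentile of 14 puncta. With every cell thinned to 100 puncta, 67.6 ± 3.38% of type 15 cells still had a Penk punctum, against 15.3 ± 0.445% in the other types and 4.45 ± 1.44% in 43_AlphaONS, the type with the lowest share.

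Pcdh11x, an X-linked protocadherin of the cell surface, was the most even of the leading genes. Its level was 8.36, 7.86, 8.04, 8.01 and 7.79 puncta per cell in type 15 and 2.48, 2.26, 2.19, 2.38 and 2.19 in the other types, in retinas 1 to 5. No type had a higher mean, the next being 26_Novel with 7.42 ± 0.595, and the retinas of these 2 types overlap. The log2 difference was 2.38 ± 0.04, and 97.6% of type 15 cells had at least 1 punctum.

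Ramp3, a partner protein of the calcitonin receptor family, had 0.719, 0.779, 0.642, 0.610 and 0.525 puncta per cell in type 15, against 0.175, 0.173, 0.151, 0.158 and 0.141 in the other types. The groups do not overlap, and only 09_Tbr1_Novel (1.06) and 22_M5 had higher means. For Ramp3 the log2 difference was 2.84 ± 0.07.

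Among transcription factors, Meis2 and Isl2 stood highest. Meis2, a homeodomain factor of the TALE class, had 11, 9.50, 9.19, 10.1 and 9.96 puncta per cell in type 15, against 3.94, 3.53, 3.54, 3.73 and 3.82 in the other types. Its distribution over types was split: 5 types had more than type 15, up to 12.4 in 38_FmidiON, while the median of the other types was 1.62. Isl2, a LIM-homeodomain factor that in the mouse marks ganglion cells with crossed projections, had 2.35, 1.59, 1.33, 1.76 and 1.77 puncta per cell in type 15, against 0.982, 0.723, 0.684, 0.779 and 0.719 in the other types. The log2 differences were 2.07 ± 0.05 for Meis2 and 2.13 ± 0.06 for Isl2.

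Of 43 transcription factors on the panel, 4 passed the 2-fold rule as higher, 2 as lower and 37 neither way, with a median log2 difference of -0.15 beside -0.09 over all 300 genes. Over all 300 genes 6% passed as higher and 4.67% as lower. The higher transcription factors were Isl2, Meis2, Foxp2 (1.66 ± 0.09), a forkhead factor that marks the F types, and Tfap2d (1.3 ± 0.08), the AP-2 delta factor. Foxp2 reached 0.352 ± 0.0269 puncta per type 15 cell, above the median of the other types (0.0860) but under the 5 types whose names begin with F, which had at least 1.22. Tfap2d, at 0.374 ± 0.0443 puncta per cell, was near the arithmetic mean of the other types (0.357 ± 0.0452). The lower ones were Neurod2 (-1.04 ± 0.16), a bHLH factor, and Lmo2 (-1.09 ± 0.17), a LIM-only cofactor. Neurod2 had 0.0383 ± 0.00578 puncta per type 15 cell and 0.255 ± 0.0155 in the other types. That mean is raised by a few types, up to 1.75 in 35_Novel, and the median of the other types was 0.0462. Lmo2 had 0.0685 ± 0.0251 puncta per type 15 cell, with a median of 0.0972 in the other types.

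Receptor genes for glycine, GABA and glutamate were among the leading genes. Glra2, the glycine receptor alpha 2 subunit, had 0.887, 0.881, 0.740, 0.798 and 0.746 puncta per cell in type 15 and 0.327, 0.324, 0.294, 0.292 and 0.295 in the other types. This was the highest mean of the 45 types, ahead of 05_J-RGC (0.722), and the log2 difference was 1.72 ± 0.06. Of 15 GABA and glycine receptor genes, 3 were higher by the 2-fold rule, 1 lower and 11 neither, beside 6% higher and 4.67% lower over all 300 genes. Their median log2 difference was 0.22, beside -0.09 over all 300 genes. Among the higher ones, besides Glra2, was the GABA-A subunit gene Gabrg1 (1.49 ± 0.07). Gabrg3, the gamma 3 subunit, was lower (-1.17 ± 0.10), with 0.267 ± 0.0636 puncta per cell in type 15 and 1.10 ± 0.0944 in the other types. The median of the other types was 0.423.

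Of 9 ionotropic glutamate receptor genes, 1 was higher and none lower, beside 6% higher and 4.67% lower over all 300 genes. The higher one was Grik1, the kainate receptor subunit GluK1, with 0.743 ± 0.0475 puncta per cell in type 15 and 0.309 ± 0.0196 in the other types (log2 difference 1.71 ± 0.07). Gria2, the AMPA receptor subunit GluA2, was abundant at 10.5 ± 0.708 puncta per cell and differed less, by 0.55 ± 0.03. None of the 5 metabotropic glutamate receptor genes passed the rule in either direction.

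Channel and subunit genes with symbols beginning Kcn, Scn, Cacn or Hcn, not all of them voltage-gated, showed few differences of 2-fold. Of 57 such genes none was higher and 1 lower, beside 6% and 4.67% of all 300 genes. Their median log2 difference was 0.06, beside -0.09 over all 300 genes. The lower one was Kcnh1, the EAG1 potassium channel, with 0.103, 0.114, 0.173, 0.129 and 0.130 puncta per type 15 cell against 0.602, 0.608, 0.504, 0.626 and 0.523 in the other types (-1.69 ± 0.11). The auxiliary subunit gene Kcnab2 had 8.66 ± 0.809 puncta per cell in type 15 and 8.79 ± 0.623 in the other types, with a log2 difference of 0.13.

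Of 31 adhesion and matrix genes, 2 were higher, Pcdh11x and the synaptic organizer Cbln4 (1.03 ± 0.12), 4 were lower and 25 neither. Their median log2 difference was -0.29, beside -0.09 over all genes, of which 6% were higher and 4.67% lower. The lower ones were Nell1, Ndnf and Spp1, which encode secreted proteins, and Clstn2, a calsyntenin of the synapse. Of 7 neuropeptide and hormone genes, Penk alone passed the rule. Among the 10 lowest genes of the profile, Igf1, insulin-like growth factor 1, had 0.231 ± 0.0446 puncta per type 15 cell and 1.47 ± 0.178 in the other types, and Kitl, the ligand of the Kit receptor, 0.251 ± 0.0404 and 1.04 ± 0.0461. Their log2 differences were -1.56 ± 0.10 and -1.54 ± 0.08. The medians of the other types were lower than these means, at 0.410 for Igf1 and 0.738 for Kitl.

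Markers of other ganglion cell classes went either way. By the 2-fold rule 1 of 3 ipRGC markers (Opn4) and 1 of 2 alpha markers (Spp1) were lower, and none of these was higher. Of the 2 F-type markers Foxp2 was higher and none lower, of the 2 N-RGC markers on the panel Penk was higher and Neurod2 lower, and none of the 3 W3 markers and not the single T-RGC marker passed. Opn4, the photopigment melanopsin of intrinsically photosensitive ganglion cells, had 0.0189 ± 0.00702 puncta per type 15 cell, against 9.25 ± 2.12 in 40_M1dup (-1.36 ± 0.23 against the mean of all other types). The median of the other types was also near 0, at 0.0298. Spp1, osteopontin, a marker of alpha cells, had 0.318 ± 0.0467, against 19.8 ± 0.880 in 43_AlphaONS and a median of 0.401 in the other types. Low levels of Opn4 and Spp1 were thus common among the types and not particular to type 15. Pvalb, the calcium buffer parvalbumin, had a log2 difference of -1.25 ± 0.11. None of the 6 listed genes linked to ON-OFF direction-selective cells is on the panel, so that class was not compared by marker.

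Further leading genes were Lxn (1.70 ± 0.07), the carboxypeptidase inhibitor latexin, and Rprm (1.68 ± 0.07), the cell cycle arrest gene reprimo. Lxn had 0.712 ± 0.119 puncta per type 15 cell and 0.404 ± 0.0655 in the other types, and Rprm 0.812 ± 0.0561 and 0.537 ± 0.0758. Against all other cells pooled, Rprm, Tfap2d and Foxp2 were under 2-fold, at 0.79, 0.32 and 0.28. On the low side stood Sv2c (-1.11 ± 0.06), a synaptic vesicle glycoprotein with 1.54 ± 0.249 puncta per type 15 cell and 4.44 ± 0.331 in the other types. Syndig1l (-1.43 ± 0.07) had 0.236 ± 0.0216 and 0.884 ± 0.0803. All 22 leading genes kept their sign in every setting tried. They were chosen for large differences with the same direction in every retina, so fits without 1 retina could hardly change a sign. The largest shift without the small sections was 0.13, for Opn4. A pair of rod genes did rest on those sections: Rpgrip1 was at 1.33 and Cnga1 at 1.07 with all cells, with the highest value in retina 3 each time (3.23 and 2.73), and at 0.05 and -0.01 without them.

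**Figure D2:**
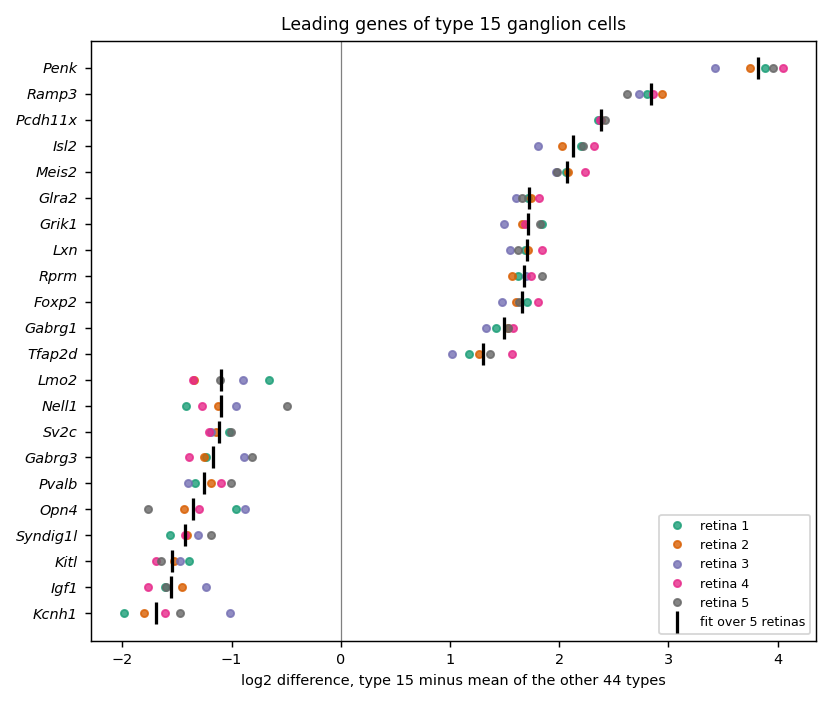
Log2 difference of type 15 minus the mean of the other 44 types for the 12 highest and 10 lowest genes chosen by rule. Points are the 5 retinas and black ticks the fit over all 5, and every point lies on the side of 0 that its gene's fit does.

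The closest type in expression was 26_Novel. Over the 300 genes the log2 levels of type 15 correlated best with 26_Novel (Pearson r = 0.966), followed by 28_FmidiOFF (0.948) and 38_FmidiON (0.948), as a description across genes that share libraries. Penk, Pcdh11x and Meis2 did not separate type 15 from 26_Novel: type 26 had 6.65 ± 0.371, 7.42 ± 0.595 and 9.94 ± 0.995 puncta per cell, and the retinas of the types overlap for each gene. Ramp3 overlapped too, at 0.655 ± 0.0980 in type 15 and 0.511 ± 0.0640 in type 26.

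Of 300 genes, 8 were at least 2-fold higher and 16 at least 2-fold lower in type 15 than in 26_Novel in the fit. Each had the same direction in every retina. The higher ones were led by Isl2 (log2 difference 1.99 ± 0.10), Rprm (1.93 ± 0.12), Cpne4, a calcium-dependent copine (1.78 ± 0.10), and Gabrg1 (1.53 ± 0.12). Isl2 had 1.76 ± 0.376 puncta per cell in type 15 and 0.513 ± 0.0873 in type 26, and the lowest type 15 retina (1.33) lay above the highest type 26 retina (0.656). The lower ones were led by Neurod2 (-3.42 ± 0.18), Nell1 (-2.86 ± 0.10), Igfbp5, an IGF-binding protein (-2.32 ± 0.15), and A730046J19Rik (-2.07 ± 0.30). Neurod2 had 0.0388, 0.0381, 0.0472, 0.0313 and 0.0362 puncta per type 15 cell, and between 0.426 and 0.496 in type 26. Nell1 had 0.449 ± 0.121 and 3.57 ± 0.337, so both genes were cleanly separated between these types. These genes were picked for their differences and carry no test.

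From 28_FmidiOFF, type 15 differed most by higher Penk (4.17 ± 0.13), Isl2 (2.84 ± 0.11), Ramp3 (2.49 ± 0.14) and Glra2 (2.35 ± 0.12). It was lower in Serpine2, a protease inhibitor (-2.93 ± 0.18), Pvalb (-2.46 ± 0.14), the cadherin Cdh8 (-2.42 ± 0.12) and Nell1 (-2.05 ± 0.10). From 38_FmidiON it differed by higher Penk (4.50 ± 0.14), Ramp3 (4.27 ± 0.20), the calcium pump gene Atp2b4 (2.62 ± 0.15) and Grik1 (2.46 ± 0.15). It was lower than 38_FmidiON in Gal, galanin (-3.87 ± 0.26), the transcription factor Ebf3 (-2.81 ± 0.09), Pvalb (-2.58 ± 0.15) and Serpine2 (-2.28 ± 0.19). Isl2 overlapped between type 15 and 38_FmidiON, at 1.76 ± 0.376 and 1.70 ± 0.407 puncta per cell. Meis2 had 9.96 ± 0.697 in type 15 and 12.4 ± 1.16 in 38_FmidiON, and the highest type 15 retina lay below the lowest of 38_FmidiON (11.3). Of 300 genes, 15 were at least 2-fold higher and 23 lower than in 28_FmidiOFF in the fit, with the same direction in every retina. Against 38_FmidiON the same rule gave 15 higher and 18 lower.

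**Figure D3:**
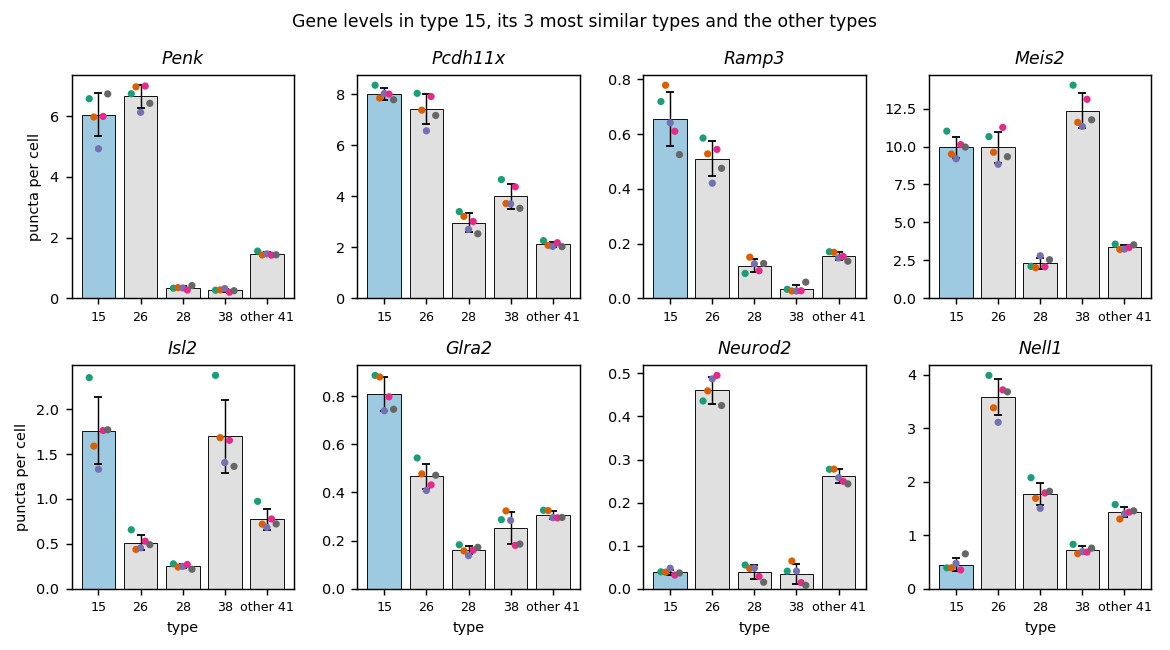
Puncta per cell of 8 genes in type 15 (blue), its 3 most similar types and the mean of the other 41 types. Bars are means over 5 retinas with SD and points are retinas, and types 15 and 26 have Penk, Pcdh11x and Meis2 alike, and Isl2, Neurod2 and Nell1 apart.

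Cell size did not set type 15 apart. The median volume of type 15 cells was 589, 580, 720, 513 and 609 in retinas 1 to 5, against 595, 597, 641, 529 and 622 in the other ganglion cells, in units that the files do not name. In 4 of 5 retinas type 15 was slightly smaller, and in retina 3 it was larger. Without the small sections type 15 in retina 3 was still larger, at 676 against 642. In log2 units type 15 differed by 0.0065 ± 0.031, adjusted p = 0.858 (limma over 45 types), in a comparison in which 37.8% of types were called larger and 31.1% smaller. It was -0.015 without the small sections, with adjusted p = 0.556. Type 15 ranked 22 from the smallest, and the mean of its median elongation was 1.21 ± 0.0125.

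Position is no part of how the cells were selected here, so the share of type 15 was tested along 3 axes. In the periphery, beyond 0.5 of the scaled radius, type 15 made up 2.19%, 2.03%, 1.67%, 2.00% and 1.67% of ganglion cells in retinas 1 to 5, and in the centre 2.23%, 1.89%, 2.18%, 2.23% and 2.12%. The share was lower in the periphery in 4 of 5 retinas, but the groups overlap. The log2 difference was -0.11 ± 0.07, with adjusted p = 0.270 in edgeR over 45 types, of which 26.7% were called higher and 15.6% lower. Without the small sections the log2 difference was -0.06.

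Along X, type 15 made up 2.10 ± 0.138% of cells on the side above 0 and 1.95 ± 0.119% below 0 (log2 difference 0.09 ± 0.06, adjusted p = 0.294 in edgeR). That comparison called 17.8% of types higher and 11.1% lower. Without the small sections the X shares were 2.02 ± 0.246% above 0 and 1.97 ± 0.122% below 0 (log2 difference 0.040, adjusted p = 0.712 in edgeR), and retina 3 turned to the lower share above 0. Along Y it made up 1.96 ± 0.0745% above 0 and 2.08 ± 0.178% below 0 (-0.09 ± 0.06, adjusted p = 0.311 in edgeR), and no type (0%) was called in either direction. Without the small sections the Y shares were 1.97 ± 0.0647% above 0 and 2.01 ± 0.320% below 0 (log2 difference -0.034, adjusted p = 0.795 in edgeR). The sources used here do not tie X and Y to anatomical directions. By rings of 0.2 of the radius, the mean share was 2.11%, 2.17%, 1.97%, 1.93% and 1.78% from the innermost to the outermost, with SDs over retinas of 0.645, 0.269, 0.260, 0.387 and 0.420 percentage points. The decline over the outer rings is of the size of these SDs. The volume of type 15 cells did not pass the test either, at 593 ± 52.4 in the periphery and 605 ± 102 in the centre (adjusted p = 0.990 in limma over 44 types, of which 0% were called higher and 2.27% lower).

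Within type 15, few genes varied with position. In the radial comparison, 254 genes passed the filter on low counts. Of these, 1 gene was higher in the periphery (0.394%, beside 1.61% of all 10227 type-gene pairs) and 1 was lower (0.394%, beside 0.724%), by edgeR with adjustment over all pairs. At an unadjusted p under 0.05 there were 23 genes (9.06%). Some called gene was found in 38 of the 40 types tested (95%), and type 15 had a smaller share of called genes than all types together.

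Sv2c was lower in the periphery. Type 15 cells there held 1.66, 1.31, 1.25, 1.14 and 1.61 Sv2c puncta per cell in retinas 1 to 5, against 2.22, 1.51, 1.49, 1.59 and 1.95 in the centre. Each retina had the lower level in its periphery, although the ranges of the sides overlap. Sv2c differed by -0.36 ± 0.06 (log2), adjusted p = 0.0175 in edgeR. The adjusted p was 0.0884, 0.111 and 0.0748 without retinas 2, 4 and 5, and 0.172 and 0.0681 with the radius split at 0.4 and 0.6.

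Spc25, known as a component of the kinetochore, was higher in the periphery. Its level was 6.82, 5.43, 5.50, 4.33 and 6.28 puncta per type 15 cell in the periphery, against 5.72, 4.21, 4.41, 3.95 and 5.11 in the centre. The direction was the same in 5 of 5 retinas, with overlapping ranges. The log2 difference was 0.24 ± 0.05, adjusted p = 0.0378 in edgeR, and the adjusted p ran from 0.0750 to 0.168 without retinas 1, 2, 4 or 5 in turn. Without the small sections Fxyd6, a regulator of the sodium pump (0.46 ± 0.10, adjusted p = 0.0169 in edgeR), and Rlbp1, a retinoid-binding protein typical of Müller glia (0.45 ± 0.11, adjusted p = 0.0386), also passed as higher in the periphery. The part of glial RNA in the Rlbp1 difference was not tested.

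Along Y, Penk was the only one of 264 genes called (0.379% lower, beside 0.244% of all pairs, and 0% higher, beside 0.126%), with 28 (10.6%) at an unadjusted p under 0.05 in edgeR. Type 15 cells above 0 held 5.59, 4.69, 4.95, 4.91 and 6.43 Penk puncta per cell in retinas 1 to 5, against 7.53, 6.95, 4.90, 6.69 and 7.20 below 0. The level was lower above 0 in 4 retinas and about equal in retina 3. As a fraction of all puncta, Penk was higher above 0 in 0 of the 5 retinas. Retina 3 had 110 type 15 cells below 0, and 85 without the small sections. The 29 cells set apart earlier held 0.276 Penk puncta per cell, and levels by side without them are not given here. Penk differed by -0.40 ± 0.06 (log2), adjusted p = 0.0466 in edgeR, and -0.44 with adjusted p = 0.00503 without the small sections. The call was lost without retina 1, 2 or 4, where the adjusted p ran from 0.401 to 0.899, and with slides as the block (adjusted p = 0.294). Ramp3 pointed the same way (-0.46 ± 0.12) without passing (adjusted p = 0.201 in edgeR).

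Along X, none of 266 genes was called in either direction (0%, beside 0.176% higher and 0.105% lower of all pairs), with 15 (5.64%) at an unadjusted p under 0.05 in edgeR and also none by DESeq2. The smallest p among genes with higher levels above 0 was that of Fxyd6, at 0.985 ± 0.227 puncta per cell above 0 and 0.735 ± 0.125 below 0 (log2 difference 0.38 ± 0.09, adjusted p = 0.177 in edgeR). Nefh, the heavy neurofilament, and Pvalb followed, at 0.13 and 0.48. Among genes with lower levels above 0, the smallest p values belonged to Grik1 (-0.25), Cdh5 (-0.65) and Scn3a (-0.15), with adjusted p from 0.4 to 0.433 in edgeR.

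None of these position effects was shown to be particular to type 15. The change with position in type 15 minus that in all other ganglion cells was tested for 300 genes on each axis, and 0 (0%) were called by edgeR on any of them. At an unadjusted p under 0.05 there were 21 (7%), 15 (5%) and 29 (9.67%) genes on the radial, X and Y axes, and DESeq2 called 1, 0 and 0. For Sv2c the difference of the radial changes was -0.24 ± 0.08 (adjusted p = 0.498 in edgeR), for Spc25 it was 0.06 ± 0.08 (0.807), and for Penk along Y it was -0.20 ± 0.13 (0.721).

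**Figure D4:**
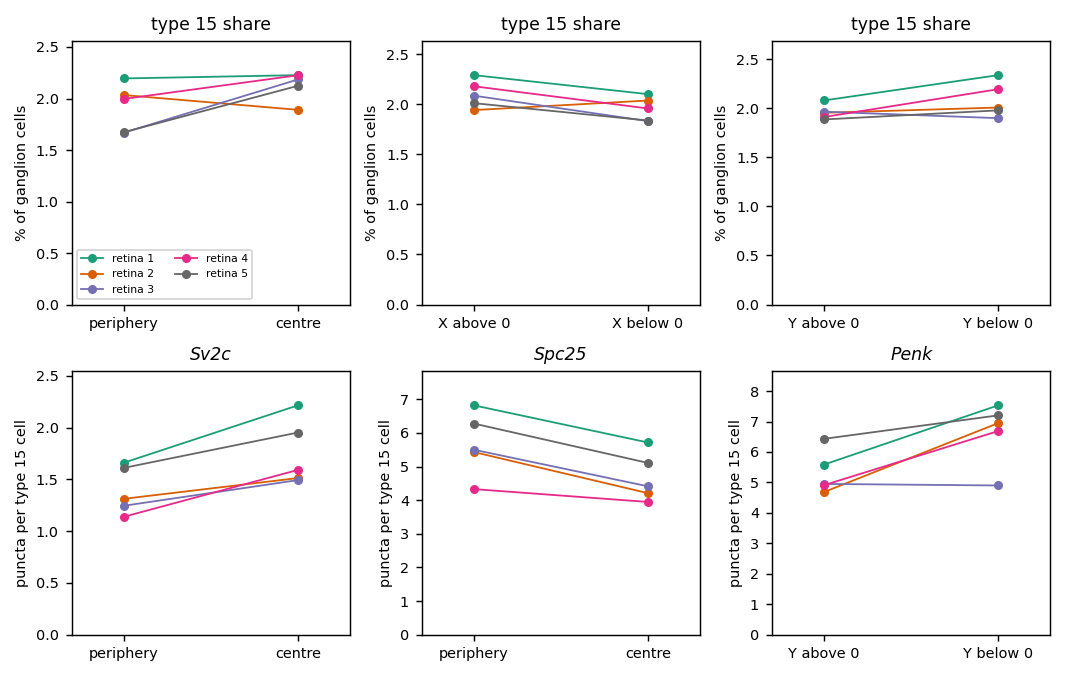
Share of type 15 among ganglion cells (top) and puncta per type 15 cell of the 3 genes called along an axis (bottom), each line 1 retina. Shares cross between sides, Sv2c falls and Spc25 rises toward the periphery in 5 of 5 retinas, and Penk is lower above 0 on Y in 4 of 5. All sections are included, also the small ones.

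Type 15 cells were spaced apart from one another. Among the 2646 type 15 cells in sections of at least 500 ganglion cells, the nearest ganglion cell was of type 15 for 1, 1, 0, 1 and 0 cells in retinas 1 to 5, against 16.9, 16.0, 3.88, 12 and 5.23 expected from the share of the type in those sections. All 5 retinas lay far under the expectation, with 3 cells counted and 54.0 expected in total. The log2 ratio was -3.34 ± 0.42, adjusted p = 3.87e-12 in limma over 45 types, with 0.5 added to both counts. This SE and p-value use variance shared between the 45 types. They do not measure the spread of type 15 over retinas alone, which had an SD of 0.230. The direction was shared by most ganglion cells, since 82.2% of types were called lower and 2.22% higher. Type 15 had the 5th lowest ratio, behind types that included 08_Novel (-3.99) and 34_Novel (-3.90). Where 0 cells were counted, as in retinas 3 and 5, the ratio follows from the expected number alone. The rank therefore depends in part on how abundant a type is. With 10 neighbours in place of 1, the ratio was -1.29 ± 0.13 and ranked 18.

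The zone of few type 15 cells extended to about 60 file units. In rings of 20 units around a type 15 cell, the number of type 15 cells over that expected from the share was 0.239 ± 0.0938, 0.544 ± 0.0354 and 0.677 ± 0.0383 in the first 3 rings (SD, n = 5). It was 1.02 ± 0.107 between 60 and 80 units and 1.09 ± 0.0814 between 80 and 100. The 5 retinas followed the same course, with no ratio above 0.734 in any ring to 60 units. The deposited distance to the nearest cell of the same type had a median of 69.1, 80.2, 80.4, 69.6 and 69.7 file units in type 15, in retinas 1 to 5. For 26_Novel, a type of like cell number, the mean of these medians was 70.9 ± 3.40, beside 73.8 ± 5.94 for type 15. The mean distance divided by its SD was 1.07 ± 0.289 in type 15 and 0.845 ± 0.286 in 26_Novel. Over all types its mean ran from 0.733 in 29_Novel to 1.17 in 06_W3B. It was not compared with a random pattern, so no regular spacing is read from it.

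The type most like it in expression was not scarce beside it. The nearest ganglion cell of a type 15 cell was of 26_Novel in 80 cases, with 48.6 expected from its share. The log2 ratio was 0.57 ± 0.21 with adjusted p = 0.132 in limma over 45 neighbour types, a comparison added after the data were seen. Of the 45 neighbour types, type 15 itself was the only one called, as lower (2.22%), with 1 neighbour and also with 10. Around cells of 26_Novel, other 26_Novel cells stood at 0.845 ± 0.389 of the expectation in the first ring and 0.71 ± 0.0999 in the second. Cell names show that some segments were merged by the authors, 7.02% in type 15 and 10.8% over all cells. The part of merging in the counts of very near pairs was not tested.

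**Figure D5:**
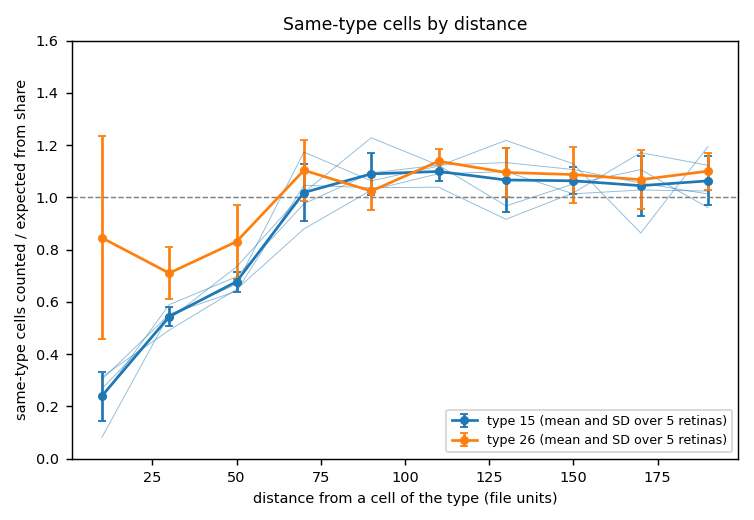
Number of same-type cells over the number expected from the share of the type, by distance from a cell (file units, rings of 20). Blue is type 15, with thin lines for the 5 retinas, orange is 26_Novel, error bars are SD over retinas and the dashed line marks 1, and the blue curve starts at 0.239 and reaches 1 beyond 60 units.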

How the data were processed

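Xenium was run by the authors on 20 µm en face cryosections, per the labels' protocols. Whole-number puncta counts for 300 genes were deposited cell by cell, per the file headers, with retina, slide, section, position, volume and type name. The counts were used as deposited. The sources used here do not say how cells were segmented, filtered and named. Every cell held at least 100 puncta. The 4 deposited samples are pairs of slides that could not be tied to retinas, so the retina (n = 5) was the replicate. There are 41 sections on 8 slides, and 2 slides hold parts of 2 retinas.

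Counts were summed per retina and type, and per retina, side and type. The sums by side needed at least 50 cells. Sums were fitted with edgeR 4.0.16 (quasi-likelihood, TMM, retina as block) in R 4.3.3, and calls used a Benjamini-Hochberg threshold of 0.05. The filter filterByExpr was applied to puncta summed by side and not to the profile. Shares were fitted on cell counts without TMM and without a filter. The profile needed 20 cells per sum. Volumes and neighbour ratios were fitted with limma 3.58.1 over all types, which shares variance between types. DESeq2 1.42.0 was an alternative. Each fit was tested on simulated data. Radius was split at 0.5, X and Y at 0.

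Named genes were the 12 highest and 10 lowest of the profile with at least 100 puncta in type 15 or 1000 over all types, the 8 most abundant, up to 4 per direction against each of the 3 most correlated types, up to 4 per gene list, and genes called along an axis, or else the 3 with the smallest p per direction. Some genes that this rule names are not reported here. Puncta depend on each gene's probes, so levels of different genes are not compared. Members and gene lists were chosen with earlier results of these data known.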

Additional observations from a re-analysis of the deposited data

Results flagged for a closer look

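The share of type 15 along X had 1 retina apart from the others. The log2 ratio of the side above 0 to the side below 0 was -0.069 in retina 2, while the other 4 retinas lay above 0, and its gap to the nearest of them was over 0.71 of the whole range. Of 39 values examined over the 5 retinas in this way, this was the only one past that limit, and chance passes about 1 in 20. Without sections of under 500 cells the ratio of retina 3 was -0.12, in place of 0.19 with all sections, and retina 2 at -0.079 was then not the lowest.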

How the results depend on the processing

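The signs of the 22 leading genes and the absence of a call for shares and volume held under every alternative run. The choice of these genes by the same direction in all 5 retinas makes a change of sign without 1 retina unlikely beforehand. The profile counted 10 genes higher and 42 lower against all other cells pooled, in place of 18 and 14. Radial calls within type 15, 1 higher and 1 lower, became 0 and 0 with no replicate block and with the split at 0.6, 3 and 2 with the slide within retina as replicate block, 2 higher by DESeq2, 0 higher with no count filter or adjusted over type 15 genes alone, 3 higher without sections under 500 cells (chosen after seeing the data), and 0 lower with the split at 0.4. Leaving out 1 retina gave 0 to 2 higher and 0 to 1 lower. The 1 call along Y became 0 with no replicate block, with the slide block, and in 3 of 5 fits without 1 retina, the range being 0 to 1. DESeq2 called 1 gene in the radial comparison with the other ganglion cells, Cbln2 (0.46, adjusted p = 0.0349), named after its value was seen. The volume difference of 0.0065 turned to -0.0084 with mean volumes, -0.015 without the small sections and -0.034 without retina 3 (range without 1 retina -0.034 to 0.019), and the radial one to 0.056 without retina 3 (-0.060 to 0.056). Of uncalled differences between type 15 and other cells along X, Fxyd6 turned to -0.026 without retina 3 (-0.026 to 0.17) and Scn3a to 0.012 without retina 4 or the small sections (-0.052 to 0.012). Same-type neighbours kept a log2 ratio of -3.34 with p = 0.0625 by exact permutation of the 5 signs, two-sided, the smallest p that 5 retinas allow. Causes were not tested. The 5 retinas limit all tests, and 254 to 276 cells in retinas 3 and 5 limit the sums by side.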

Other observations

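Some types had low counts as the nearest neighbour of type 15 cells, without passing the test. Among them, 40_M1dup was the nearest neighbour in 5 cases with 13.8 expected, 45_AlphaOFFT in 18 with 35.9, and 43_AlphaONS in 20 with 36.6. Their log2 ratios were -1.59 ± 0.37, -1.2 ± 0.33 and -0.90 ± 0.22, with adjusted p of 0.0774, 0.0811 and 0.0774 in limma over 45 neighbour types. With 10 neighbours the ratios were -0.18, -0.21 and 0.03. A type without such a name, 39_Novel, had 18 cases with 31.2 expected (-0.85 ± 0.24, adjusted p = 0.0811 in limma). The type 33_M1 was near its expectation, with 26 cases and 28.8 expected. The mean of the median volumes was 630 in 40_M1dup and 915 in 43_AlphaONS, beside 602 in type 15, and the part of cell size in these counts was not tested. At the other end stood 01_W3D1.1, with 311 cases and 241 expected (0.45 ± 0.15, adjusted p = 0.122).

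Of the types most like type 15 in expression, 26_Novel made up a lower share in the periphery (log2 difference -0.36 ± 0.09, adjusted p = 0.00350 in edgeR over 45 types), 38_FmidiON a higher one (0.42 ± 0.12, adjusted p = 0.0108), and 28_FmidiOFF was not called (-0.07 ± 0.08, adjusted p = 0.489). Type 15 itself was at -0.11 ± 0.07 and not called, and differences between these types were not tested.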
